A study of Homo sapiens with 3 samples.

Results

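In the H2087 lung adenocarcinoma cell line, 7945 of 24096 distinct H3K27ac peaks (33.0%) lay inside a protein-coding gene, more than 3 kb from every annotated gene start, and shared no base with an H3K4me3 peak. These intragenic distal H3K27ac-only peaks were chosen by measured values, namely the presence of a called H3K27ac peak and the absence of a called H3K4me3 peak at the same bases. Gene starts of all gene types and the bodies of protein-coding genes were those of GENCODE release 44 lifted to GRCh37, the hg19 assembly on which the peaks were called. They made up 43.4% of the 18309 H3K27ac peaks without H3K4me3 and 62.7% of the 12671 such peaks that were also distal to gene starts. The remaining distal H3K27ac-only peaks, 4726 in all, lay outside protein-coding genes.

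H2087 is an established human line, grown here untreated as 1 culture condition. Chromatin was immunoprecipitated with 1 antibody to H3K27ac and 1 to H3K4me3, and 1 input sample without antibody was sequenced (not analysed here). Each mark had 1 library, so no value below has a replicate error, and differences between marks or groups of genes were not tested. The range in brackets after a share is its exact 95% Clopper-Pearson interval. It reflects the number of peaks, genes or windows counted and ignores that peaks often lie in clusters.

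Acetylation of lysine 27 on histone H3 is deposited by the coactivators EP300 and CREBBP and marks nucleosomes at active promoters and active enhancers. Trimethylation of lysine 4 marks promoters, so that H3K27ac without H3K4me3 inside a gene body is a usual sign of an enhancer in an intron. Such an enhancer is bound by transcription factors in a short stretch of open DNA, and the acetylated nucleosomes lie to each side of that stretch. AP-1, a dimer of FOS and JUN family proteins, is a common factor at enhancers of epithelial cells and binds the word TGACTCA.

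A window from one of the strongest members is shown first, as an example of single-copy sequence under a strong peak. The line gives the 300 bases around the centre of the peak on the plus strand of hg19, with no AP-1 word in it.
PACSIN1 (chr6:34453582-34453881): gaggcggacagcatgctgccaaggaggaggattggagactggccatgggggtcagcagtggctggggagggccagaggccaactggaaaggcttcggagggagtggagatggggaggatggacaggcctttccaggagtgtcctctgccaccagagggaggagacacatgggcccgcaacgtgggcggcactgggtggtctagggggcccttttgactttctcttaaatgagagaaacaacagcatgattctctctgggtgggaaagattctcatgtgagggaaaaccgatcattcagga
The -log10 q is the strength that the authors' peak caller gave a peak within its own library, read as such from its range, and larger values are stronger. The KRT8 peak had the highest -log10 q of all members, 12.5. It lay in an intron 21.9 kb from the start of the gene, which encodes a keratin of simple epithelia and held 14 members. The PACSIN1 peak (-log10 q 11.2) lay in an intron 19.9 kb from the start of a gene for a membrane-bending adaptor of endocytosis. The ARHGEF37 peak (-log10 q 10.3) lay 10.6 kb into a gene for a guanine nucleotide exchange factor. Of the 32-base words in the ARHGEF37 window, 66.7% occurred more than once in the assembly, against 25.9% in the KRT8 window and 0% in the PACSIN1 window.

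The members with the most AP-1 words are shown next, because they carry the motif inside the acetylated interval itself. Capitals mark the AP-1 word TGACTCA, or TGAGTCA where it is on the minus strand.
TRIB3 (chr20:351619-351918): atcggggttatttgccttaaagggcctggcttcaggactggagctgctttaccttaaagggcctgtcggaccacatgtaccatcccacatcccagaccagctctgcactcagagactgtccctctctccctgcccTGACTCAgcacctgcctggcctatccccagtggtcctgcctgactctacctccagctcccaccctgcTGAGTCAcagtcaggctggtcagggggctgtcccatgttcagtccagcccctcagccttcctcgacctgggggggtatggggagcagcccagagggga
ERGIC1 (chr5:172347623-172347922): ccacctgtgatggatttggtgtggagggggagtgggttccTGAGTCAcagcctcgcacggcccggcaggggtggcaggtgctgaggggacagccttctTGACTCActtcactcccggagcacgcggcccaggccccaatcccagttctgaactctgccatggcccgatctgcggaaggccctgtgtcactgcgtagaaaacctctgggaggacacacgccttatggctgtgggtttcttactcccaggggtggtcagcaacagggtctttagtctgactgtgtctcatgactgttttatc
Only 3 members held 2 AP-1 words in their window and 287 held 1, so these windows are exceptions. The TRIB3 window (peak -log10 q 4.45) lay 8.12 kb from the nearest gene start, in the gene of a stress-induced pseudokinase. The ERGIC1 window (peak -log10 q 3.17) lay 34.0 kb from the nearest gene start, in the gene of a cycling protein of the compartment between endoplasmic reticulum and Golgi.

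The third set shows the DNA between 2 neighbouring members, where the AP-1 word was more frequent than under the members. Capitals mark the same word, and the gap runs from the end of 1 member to the start of the next.
ECE1 gap (chr1:21652188-21652483): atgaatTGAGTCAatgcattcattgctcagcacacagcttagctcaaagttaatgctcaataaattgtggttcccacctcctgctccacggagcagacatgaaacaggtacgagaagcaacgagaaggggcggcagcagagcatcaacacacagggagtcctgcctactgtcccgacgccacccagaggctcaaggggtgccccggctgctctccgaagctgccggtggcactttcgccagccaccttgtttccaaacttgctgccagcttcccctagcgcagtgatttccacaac
CGNL1 gap (chr15:57795351-57795572): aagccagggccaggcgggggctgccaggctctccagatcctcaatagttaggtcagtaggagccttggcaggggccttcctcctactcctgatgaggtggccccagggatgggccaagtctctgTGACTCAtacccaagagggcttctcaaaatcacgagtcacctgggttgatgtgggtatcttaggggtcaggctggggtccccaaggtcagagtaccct
The ECE1 gap was 296 bp long and separated members with -log10 q 7.81 and 5.92, the latter 1863 bp wide. The CGNL1 gap was 222 bp long and separated members with -log10 q 3.30 and 5.23. ECE1 encodes the enzyme that cleaves big endothelin and CGNL1 a cingulin-like protein of cell junctions. These gaps were picked after the values were seen, as examples of gaps of 100 to 300 bp with an AP-1 word, ranked by the summed -log10 q of the members on each side, where neither member had over 50% multi-copy words.

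Members were narrow and of modest strength. Their median width was 270 bp (interquartile range 217 to 361, maximum 2508) and their median -log10 q was 2.45 (1.83 to 3.30). A -log10 q of 5 or more was reached by 426 members, or 5.36% (4.88 to 5.88). The same strength was reached by 6.17% (5.56 to 6.83) of H3K27ac-only peaks near a gene start, whose interval overlapped that of the members, by 7.36% (6.63 to 8.15) of distal H3K27ac-only peaks outside genes and by 18.5% (16.3 to 21.0) of intragenic distal peaks with both marks. More than 1 summit was called in 2.04% of members, 2.04% of H3K27ac-only peaks near a gene start, 2.90% of those outside genes and 10.1% of intragenic distal peaks with both marks. Absence of a called H3K4me3 peak does not measure absence of the mark. An H3K4me3 peak lay within 1 kb of 810 members (10.2%), the median gap to the nearest was 14.1 kb, and 1783 members (22.4%) were more than 50 kb from any.

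After KRT8, PACSIN1 and ARHGEF37, the strongest members lay in EPAS1 (-log10 q 9.86), which encodes the hypoxia-inducible factor HIF-2 alpha, in an exon annotated to the overlapping JRK and PSCA genes (9.79), in LRP5 (9.63), a co-receptor for WNT ligands, in UQCC1 (9.53) and in PARD3 (9.37). The DPYD member (9.34) was 715 kb from the start of its gene and 557 kb from the nearest H3K4me3 peak. DPYD encodes the enzyme that degrades pyrimidines. The member in C2CD3 (9.34), a gene of the centriole, was 85.3 kb from the nearest H3K4me3 peak. The widest member spanned 2508 bp in RTEL1, a DNA helicase gene, at chr20:62316555-62319062. The next widest lay in introns of ECE1 (1863 bp), CUEDC1 (1840 bp) and UQCC1 (1773 bp). EPHB2, an ephrin receptor gene, held one of 1575 bp.

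Most members were intronic. The centre of 7029 members (88.5%, 87.7 to 89.2) lay outside every annotated exon, whereas introns made up 92.9% of the eligible bases, meaning bases of protein-coding genes more than 3 kb from any gene start. Per Mb of eligible sequence there were 6.52 members in introns and 11.1 in exons. Coding sequence held 402 members (14.7 per Mb), 5′ UTRs held 89 (31.1 per Mb) and 3′ UTRs held 238 (6.91 per Mb). Of the 8417 member-gene pairs, 2550 (30.3%) fell in the first intron of the canonical transcript (1 transcript per gene, as tagged in the annotation, or else the longest), which held 18.5% of the eligible bases. The density was 11.3 per Mb in first introns, 5.34 in middle introns and 5.63 in last introns. The canonical transcript of a host gene spanned the centre of 7113 members (89.5%, 88.8 to 90.2). The others lay only within the wider annotated extent of their genes. Alternative starts lay near some members. Within 1 kb of an annotated transcript start there were 1195 members, a share of 14.3 to 15.8%, at 16.7 per Mb, in 6.15% of the eligible bases. The 3 kb limit was set on gene starts and not on transcript starts. With the same limit set on the start of every annotated transcript, 5434 of the 7945 members remained.

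Over genes of all lengths together, density fell with distance from the gene start. In genes with an H3K4me3 peak within 1 kb of the start there were 22.1 members per Mb at 3 to 5 kb from the start, 12.5 at 20 to 50 kb and 3.16 beyond 500 kb. In genes without such a peak the same distances held 9.57, 6.48 and 1.02 per Mb. The marked genes were above the unmarked genes at each of the 8 distances. The median member lay 36.7 kb from the start of its own gene, and 3264 members (41.1%) lay more than 50 kb from it.

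**Figure D1:**
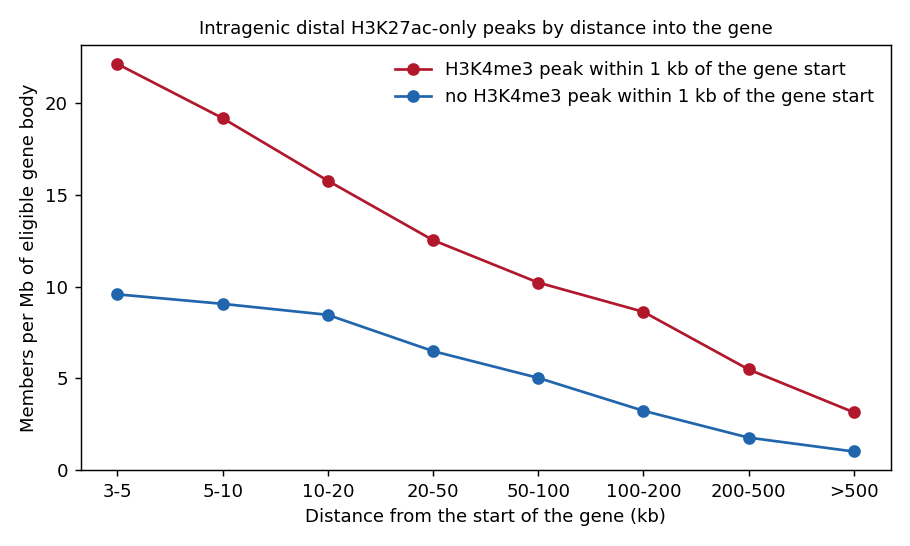
Members per Mb of eligible gene body (y axis) by distance from the start of the host gene in kb (x axis), for genes with (red) and without (blue) an H3K4me3 peak within 1 kb of their start, 1 library per mark. Both lines, each over genes of all lengths together, fall with distance, from 22.1 to 3.16 and from 9.57 to 1.02 members per Mb.

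Members lay in 3385 of 20163 protein-coding genes (16.8%), or in 19.0% of the 17841 genes that had any eligible base. Exactly 1 member was held by 1749 genes, 2 to 4 by 1217, 5 to 9 by 302 and 10 or more by 117. The 419 genes with at least 5 members held 42.1% of all member-gene pairs. The rule kept members more than 3 kb from host starts and off H3K4me3 peaks of the same library, so the marks at host starts are given as a description. Of the host genes, 53.7% (52.0 to 55.4) had an H3K4me3 peak within 1 kb of the start, against 36.8% (36.1 to 37.6) of genes with eligible bases and no member. The share was 50.4% (48.0 to 52.7) in genes with 1 member, 56.1% (53.3 to 58.9) with 2 to 4 and 60.9% (56.0 to 65.6) with 5 or more. When any annotated transcript start was counted, which gives a gene with several starts more chances to be counted, 70.0% (68.4 to 71.6) of host genes, 83.1% (79.1 to 86.5) of those with at least 5 members and 42.7% (41.9 to 43.5) of genes with no member were marked.

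The marks at the start also separated genes of equal length. Over all lengths there were 14.8 members per Mb in genes with both marks at the start, 12.8 with H3K27ac alone, 8.10 with H3K4me3 alone and 4.01 with neither. In genes of 100 to 200 kb these values were 14.6, 10.0, 8.98 and 5.04, and in genes of 500 kb or more they were 7.04, 1.73, 3.12 and 1.11. In each length class below 100 kb, genes with H3K27ac alone were above those with both marks. They held 33.2 against 25.2 per Mb below 20 kb, 22.6 against 19.8 at 20 to 50 kb and 17.6 against 16.6 at 50 to 100 kb. H3K27ac alone was above H3K4me3 alone in the 5 shorter length classes and below it in the longest, where 10 genes had H3K27ac alone.

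**Figure D2:**
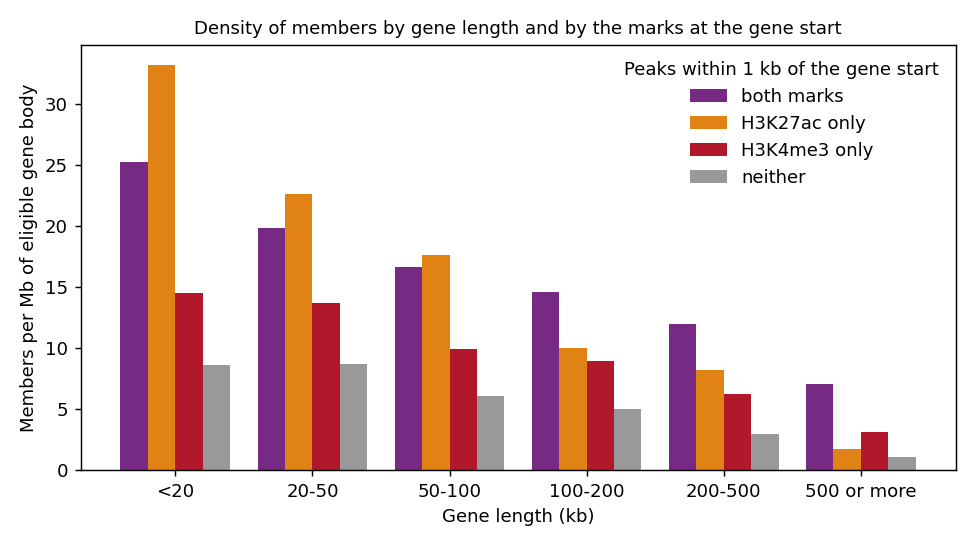
Members per Mb of eligible gene body (y axis) by gene length in kb (x axis) and by which peaks lay within 1 kb of the gene start (colours), 1 library per mark. Genes with neither mark are lowest in each length class, from 8.64 members per Mb below 20 kb to 1.11 at 500 kb or more.

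PARD3, which encodes a polarity scaffold at tight junctions, held the most members, 59 in 679 kb of eligible sequence, or 8.69 per 100 kb. KCNMA1, a calcium-activated potassium channel gene, followed with 28 (3.84 per 100 kb) and RAD51B, a gene of homologous recombination, with 26 (3.08 per 100 kb). MGLL, the monoacylglycerol lipase gene, and MICAL2, an actin-oxidising monooxygenase gene, held 24 each. ZMIZ1, a coactivator gene, held 22, and CMIP, CUEDC1 and UQCC1 held 21 each. GRK5, a kinase of G protein-coupled receptors, held 20. SMAD3, the transducer of TGF-beta signals, held 19 at 15.7 per 100 kb, and RAI1 held 19 at 16.9 per 100 kb. TTC7A, NSMCE2 and MAD1L1 also held 19, and the 19 in ENSG00000286192 lay in a gene that overlaps MAD1L1 on the same strand. EGFR, the epidermal growth factor receptor gene, held 18 at 9.80 per 100 kb. BCAR3, an adaptor of SRC and CAS signalling, MAML2, a NOTCH coactivator, and TNS3, a focal adhesion tensin, held 18 each. All 20 genes had H3K4me3 within 1 kb of at least 1 transcript start, and in 17 of them this included the outermost start, the exceptions being MICAL2, SMAD3 and BCAR3.

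**Figure D3:**
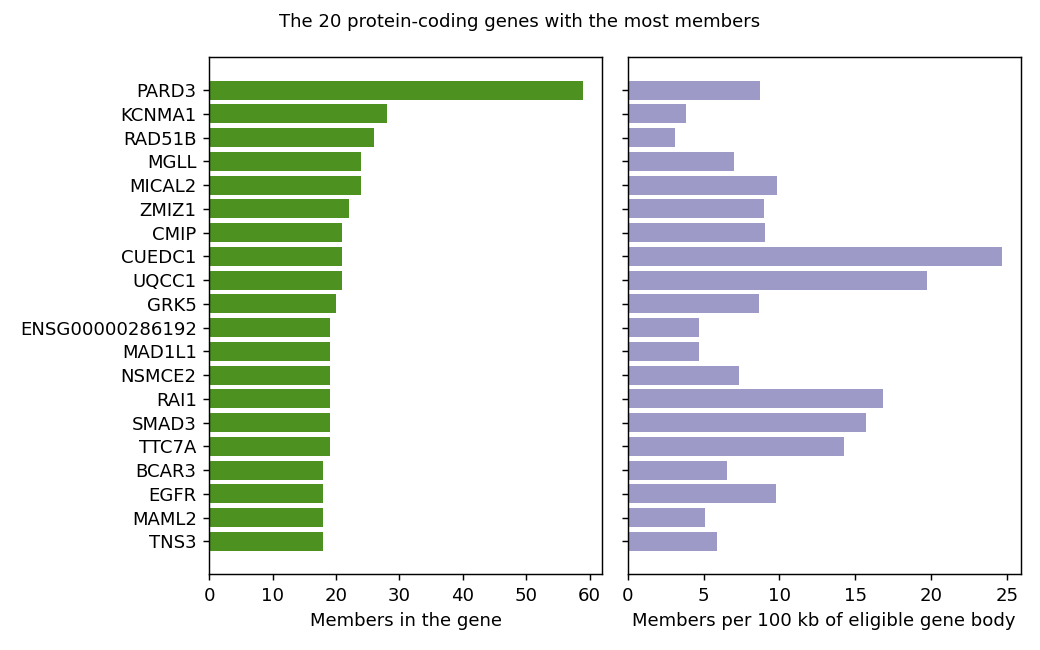
Number of members (left, x axis) and members per 100 kb of eligible gene body (right, x axis) in the 20 protein-coding genes with the most members (y axis). PARD3 stands apart in number with 59, whereas CUEDC1 (24.7) and UQCC1 (19.7) are highest per 100 kb.

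Per 100 kb, among genes with at least 5 members, short genes led. SLC22A18, an organic cation transporter gene, held 8 members in 18.4 kb (43.4 per 100 kb), MFGE8, a secreted bridge for the uptake of dying cells, 5 (42.4 per 100 kb) and SPRYD3 5 (41.4 per 100 kb). ASB2 held 11 members (39.9 per 100 kb) with no H3K4me3 peak at any of its transcript starts. The others were CTSB, the cathepsin B gene (38.9), SLC37A2 (37.2), BMF (35.6), EEIG1 (35.0), ADORA2B (32.6) and SDC1, the syndecan-1 gene (32.4). At the other end, each of the 10 longest protein-coding genes, which are RBFOX1, CNTNAP2, PTPRD, DMD, DLG2, CSMD1, MACROD2, EYS, LRP1B and CTNNA3, held 0 members. Their eligible lengths were 1800 to 2342 kb. Of the 324 genes of 500 kb or more, 108 (33.3%) held a member.

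Members lay close together. Another member of the same gene was within 10 kb of 4719 members (59.4%, 58.3 to 60.5) and within 1 kb of 1744. Joining members of a gene within 10 kb gave 1531 runs of 2 or more, with a median span of 5.00 kb, and 209 runs of 5 or more. The run with most sequence under peaks was in PARD3 at chr10:34976346-35059595, with 31 members in 83.2 kb and 12.2 kb under peaks. UQCC1 had 18 members in 27.5 kb at chr20:33891289-33918744, next to the end of the gene and 9.99 kb under peaks. SUFU, an inhibitor of Hedgehog signalling, had 16 members in 29.2 kb, FAM178B had 12 in 32.3 kb and EEIG1 had 13 in 26.2 kb. In FAM178B and EEIG1 the gene start had no H3K4me3 peak.

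Gene lists were compared by their counts and by members per Mb, beside 6.90 per Mb and 19.0% of genes over all protein-coding genes with eligible bases. The counts are out of the genes of each list that had eligible bases. Of the epithelial and cytoskeletal lists, genes of the actin cytoskeleton and its regulators had members in 18 of 24 genes at 43.5 per Mb, led by BCAR3 (18), MYO1E (14), MYH9 (13) and ACTN4 (9). MYO1E and MYH9 encode myosins and ACTN4 an actin cross-linker. Epithelial junction genes had members in 15 of 23 at 37.4 per Mb, which was 18.8 without PARD3. CLDN4 and CTNNA1 held 5 members each and CDH1, the E-cadherin gene, held 4. Of the desmosome genes, PKP2 and JUP held 2 each, while DSP, DSG2, DSC2 and PKP3 held none. Integrin, laminin and focal adhesion genes had members in 19 of 26 at 23.5 per Mb, led by TNS3 (18), LPP (13), PXN (9), the paxillin gene, and ITGB5 (7).

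Among signalling lists, receptor tyrosine kinase and MAPK genes had members in 13 of 30 at 28.5 per Mb, led by EGFR (18), IGF1R (13), SPRED2 (7), an inhibitor of RAS signalling, and ERBB2 (3). NRAS and HRAS held none in 9.30 and 2.08 kb of eligible sequence. TGF-beta and SMAD genes had members in 10 of 21 at 28.1 per Mb, led by SMAD3 (19), its corepressor SKI (14), LTBP2 (10) and TGFBI (5). Genes of AP-1 and YAP-TEAD had members in 9 of 18 at 22.9 per Mb, led by WWTR1 (7), TEAD1 (4), AMOTL2 (3) and MAFK (3), while JUN held none. JUNB had no eligible base and FOS had 0.404 kb, so the 3 kb limit left them almost no room for a member. JUN, JUNB and FOS each had H3K4me3 at the start. Longer genes of the list also held none, namely ATF3 in 46.4 kb of eligible sequence, FOSL2 in 17.5 kb, LATS2 in 67.9 kb and YAP1 in 114 kb. NRF2 and AHR genes had members in 8 of 21 at 17.0 per Mb, led by AHR (5), TKT (5), NFE2L2 (4) and TXNRD1 (4). Nuclear receptors and coregulators had members in 10 of 24 at 10.6 per Mb, among them RXRA (12), PPARD (6) and VDR (5).

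Lung lineage genes had members in 4 of 20 at 8.67 per Mb, among them GRHL2 with 2 and ELF5 and HOPX with 1 each. NKX2-1, which defines the alveolar lineage, had both marks at its start and no eligible base, so it could hold no member. The surfactant genes SFTPB and SFTPC held none in 8.43 and 2.06 kb of eligible sequence and had no peak of either mark at the start. Many of these genes are short, with a median of 17.3 kb of eligible sequence. Lists of other cell types were below all genes in members per Mb but not throughout in the share of genes with a member, which was 30% for the blood and immune list. Blood and immune genes had members in 6 of 20 at 3.71 per Mb, led by RUNX3 (4), INPP5D (2), PRKCB (2) and VAV1 (2). Genes of fibroblasts, muscle and endothelium had members in 3 of 19 at 0.901 per Mb, in ERG (2), PDGFRB (2) and CDH5 (1), with COL1A1 at 0. Neuronal and synaptic genes had members in 4 of 24 at 0.256 per Mb, in SYT1 (3), GRM5 (2), GRIK2 (1) and RBFOX3 (1). These neuronal genes are long, with a median of 1133 kb of eligible sequence, and all genes of 500 kb or more had 1.92 members per Mb.

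**Figure D4:**
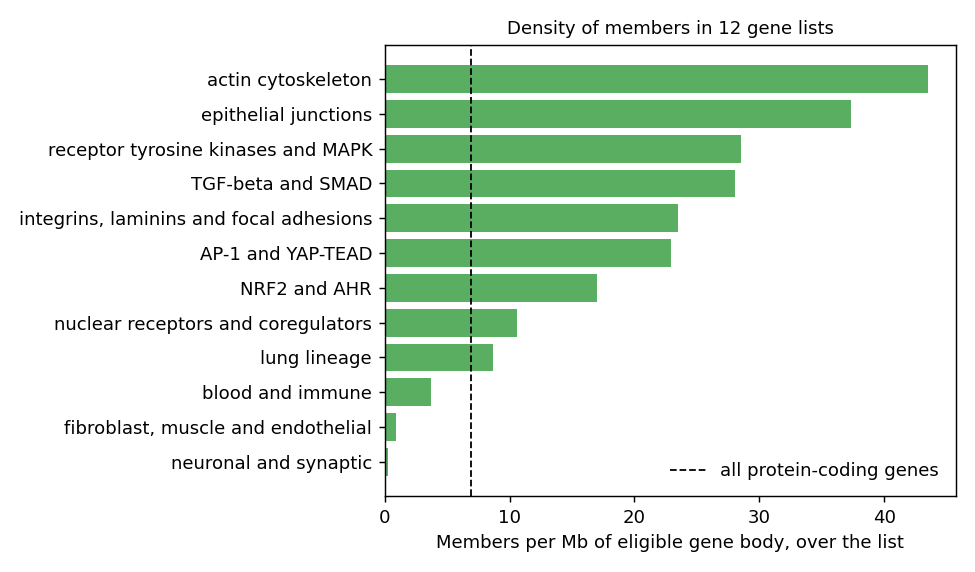
Members per Mb of eligible gene body (x axis), summed over the genes of each of 12 lists (y axis), with all protein-coding genes as a dashed line at 6.90. The actin cytoskeleton list is at 43.5 and the neuronal list at 0.256.

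The AP-1 word was not frequent under the members but was frequent beside them. TGACTCA on either strand was in 3.65% (3.25 to 4.09) of the 7945 windows of 300 bp at the centre, and the same letters in reverse order, ACTCAGT, were in 3.30%. The share was 3.51% (3.01 to 4.08) in distal H3K27ac-only peaks outside genes, 3.12% (2.90 to 3.34) in all H3K27ac peaks and 3.91% (3.65 to 4.19) at all protein-coding gene starts. In windows of the same length 500 bp to either side of the centre, the AP-1 word was in 9.33% (8.88 to 9.79) and the reverse-order word in 4.66%. The shares fell to 7.56% (7.15 to 7.98) at 1000 bp, 6.10% (5.73 to 6.48) at 2000 bp and 4.94% (4.61 to 5.29) at 4000 bp, with the reverse-order word at 3.99, 4.12 and 4.02%. The interval at 500 bp did not overlap that at the centre or that at any larger distance, which is a description and not a test. The windows are not independent, since each member gave 2 flanking windows and 837 members had another of the same gene within 0.5 kb. At the centre the share was 3.22% (2.49 to 4.09) in the weakest 1987 members by -log10 q and 3.68% (2.89 to 4.60) in the strongest 1986, with overlapping intervals.

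The rise beside the centre was not limited to intragenic peaks. At 500 bp the AP-1 word was in 11.9% (11.3 to 12.6) of windows beside distal H3K27ac-only peaks outside genes, above the members, and in 6.94% (6.48 to 7.43) beside H3K27ac-only peaks near a gene start, below them. TEAD, FOX and RUNX words took another course. The TEAD word ACATTCC was in 3.08% of centre windows, 4.10% at 500 bp and 4.06% at 4000 bp. The FOX word TGTTTAC was in 1.83%, 3.61% and 3.51%, and the RUNX word TGTGGTT in 3.90%, 5.28% and 5.23%. For each of these the intervals at 500 and 4000 bp overlapped, whereas those of the AP-1 word did not. The AP-1 word was not alone in this among the words searched. The TFAP4 word was in 18.0% (17.4 to 18.6) at 500 bp and 15.7% (15.1 to 16.2) at 4000 bp, but was highest at the centre, at 20.3%. Other words rose from 500 to 4000 bp without overlap, such as those of HNF1 (7.85% and 9.02%) and NKX2-1 (7.46% and 8.45%). At the centre the HNF1 word was lower, at 4.09%, whereas the NKX2-1 word was highest there, at 9.98%.

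**Figure D5:**
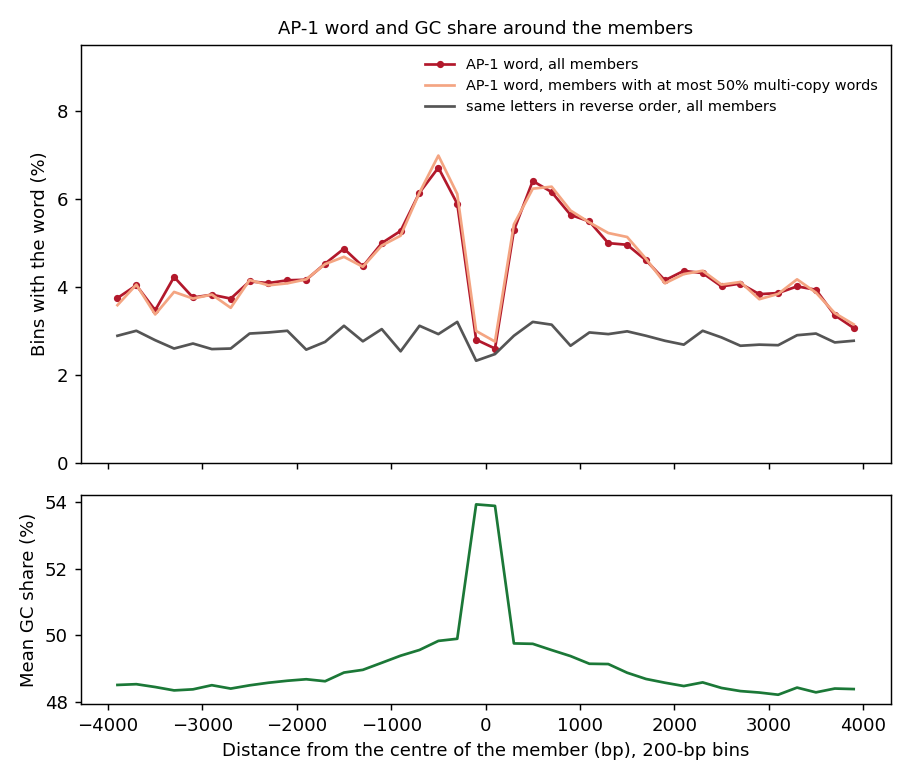
Top, percent of 200-bp bins with the AP-1 word on either strand (y axis) by distance from the centre of the member in bp (x axis), for all members (red), for members with at most 50% multi-copy words (light), and for the same letters in reverse order (grey). Bottom, mean GC share of the bins. The AP-1 word is at 2.61 to 2.81% in the 2 central bins and at 6.41 to 6.71% between 400 and 600 bp to each side, while the reverse-order word stays between 2.33 and 3.21%.

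Gaps between neighbouring members showed the same pattern. Of pairs of neighbours less than 3 kb apart, the commonest gap was 200 to 400 bp, with 310 pairs, against 19 pairs with a gap below 200 bp and 185 at 800 to 1000 bp. In the 981 gaps of 100 to 1000 bp there were 257 AP-1 words in 542 kb, or 0.474 per kb, and 0.175 per kb of the reverse-order word. The members on each side held 0.105 AP-1 words and 0.140 reverse-order words per kb. An AP-1 word was in 214 of these gaps (21.8%), as in the ECE1 and CGNL1 gaps printed above. By length, the gaps held 0.345 AP-1 words per kb at 100 to 300 bp, 0.463 at 300 to 600 bp and 0.498 at 600 to 1000 bp.

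Base composition moved with position too. The median GC share was 54.3% (upper quartile 59.7) under the members and 48.7% in windows 2 kb to either side. It was 52.7% in distal H3K27ac-only peaks outside genes and 64.3% in peaks near a gene start with both marks. The ratio of observed to expected CpG was at least 0.6 in 4.68% of members and in 57.0% of peaks near a gene start with both marks. The part of GC share in the central AP-1 share was not tested. Multi-copy sequence also moved with the centre. More than 50% of the 32-base words occurred elsewhere in the assembly in 16.2% of member windows, against 6.56% of windows 500 bp to either side and 8.68% at 2000 bp. Over the 6659 members with at most 50% multi-copy words, the AP-1 share was 4.01% at the centre and 9.28% at 500 bp.

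CAPN1 and GLRX3, the genes the study followed up, held 2 and 0 members, and the difference was not tested. The study placed its CAPN1 variant in a promoter H3K4me3 peak. Its other variant was placed in an H3K27ac peak in an intron of LINC00959, downstream of GLRX3. Members inside GLRX3 do not cover that site, and neither site was looked up here. CAPN1, a calcium-dependent protease gene with H3K4me3 at its start, held 2 weak intronic members, at chr11:64972979-64973165 (-log10 q 1.41) and chr11:64977628-64977824 (2.09). GLRX3, a glutaredoxin gene with both marks at its start, held 0 members in 45.1 kb of eligible sequence. At the 3 kb limit, the nearest members inside it lay 3001 bp from a gene start in ENSG00000226690 (-log10 q 2.16), 3002 bp in MNT (3.45) and 3004 bp in TRIM8 (1.39). The nearest peaks left out lay at 2999 bp in ENSG00000285444 (2.64), 2998 bp in ATP13A1 (1.51) and 2997 bp in S100A10 (1.83).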

How the data were processed

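H2087 cells were untreated, and chromatin was immunoprecipitated with antibodies to H3K27ac and H3K4me3, 1 library each, beside 1 input. Per the submitters' processing notes, the tools were bcl2fastq 1.8.4, Bowtie 1.1.1 on hg19, SAMtools 1.2, Picard 1.118 and MACS2 2.1.0. The authors deposited peak intervals with a -log10 value per summit, read here from its range as -log10 of the q value (lowest value 1.30 for H3K27ac, 1.31 for H3K4me3). The q threshold and control are not given in the sources used here, and read depth is unknown, so no value carries a depth-based error.

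Intervals listed once per summit were counted once with their highest -log10 q. The 25275 H3K27ac and 20282 H3K4me3 entries gave 24096 and 18585 peaks. Classes, host genes and eligible bases were computed with pandas 2.3.3, intervals with scipy 1.17.1 and sequence with pysam 0.24.0 from the GRCh37 primary assembly. Motif words were searched on both strands in 300 bp around the peak centre. A 32-base word, taken every 10 bases, counted as multi-copy when it occurred more than once in the assembly. Densities over genes count member-gene pairs, since 451 members lay in more than 1 gene. The rule recovered 100% of 200 simulated members, which were planted to meet it, so this checks the code and not the peak calls. The members and gene lists were chosen with earlier results of these data known. The named genes were the 20 with most members, the 10 densest, the 10 longest, the 5 runs with most sequence under peaks, the 10 strongest and 10 widest members, the 4 leading genes of each list (some are not reported here), CAPN1 and GLRX3; list genes named at 0 members were picked after their values were seen. With 1 library per mark no test between samples was possible.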

Additional observations from a re-analysis of the deposited data

How the results depend on the processing

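The number of members was 5205 with a 10 kb limit and 3521 in the upper part of the H3K27ac list by -log10 q, and the latter lay in 1960 genes. The intronic share was 93.1% against exons of the longest transcript alone, 82.4% when no base of the peak touched an exon and 86.9% in members with at most 50% multi-copy words, an alternative chosen after seeing the data, as were all those that follow on multi-copy words, on windows 500 bp away and on the density ratio. The share of host genes with H3K4me3 at the start was 61.1% within 3 kb, 70.0% at any transcript start and 39.2% when H3K4me3 peaks below their median -log10 q were left out. The AP-1 share was 9.83% in 600 bp windows, which reach into the flanks, and 10.1% at 500 bp to either side for the upper part of the H3K27ac list. Median GC share was 52.2% in 600 bp and 55.5% in the peak itself. The share of members with a neighbour was 50.7% within 5 kb, 46.7% after merging peaks within 1 kb, 47.0% in the upper part of the list and 56.9% with little multi-copy sequence. The density ratio of marked to unmarked genes was 2.39, and 3.83 with any transcript start. The other 22 of 40 alternatives moved a count by less than 1.5 times, a share within its 95% interval or the median GC share by at most 1 percentage point. No paired analysis was possible because the 2 marks come from single libraries. The alternative on soft-masked bases was not run, since the assembly used has no soft-masking.

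With 1 library per mark, no value has a replicate error and the depth behind the peaks is unknown. The intervals ignore clustering, and 59.4% of members had a neighbour within 10 kb. DNA copy number was not measured.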

Other observations

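Members were unevenly spread over chromosomes. Per Mb of eligible sequence there were 15.7 on chromosome 22, 14.6 on chromosome 17, 11.7 on chromosome 16 and 11.1 on chromosome 11. Chromosome 4 had 1.99, chromosome 13 had 1.91, chromosome 18 had 1.16 and chromosome X had 0.168, with 8 members in 47.6 Mb. All H3K27ac peaks numbered 33 on chromosome X and 82 on chromosome 18. DNA copy number was not measured, and its part in these values was not tested.

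The word CACTTGA, which NKX2-1 binds, was in 9.98% (9.33 to 10.7) of member windows and 8.45% (8.02 to 8.90) of windows 4000 bp away. In members with at most 50% multi-copy words it was in 6.58% (5.99 to 7.20) at the centre and 7.99% (7.53 to 8.46) at 4000 bp, the opposite direction. The E-box CAGCTG, a word of TFAP4, was in 20.3% (19.5 to 21.2) of member windows, 15.7% (15.1 to 16.2) at 4000 bp and 19.0% of windows at all protein-coding gene starts. The YY1 word AAGATGG was in 5.32% (4.84 to 5.84) of member windows and 6.28% (5.95 to 6.62) of gene starts. In the gaps of 100 to 1000 bp between members, TEAD words were at 0.138 per kb against 0.126 in the members beside them, and FOX words at 0.140 against 0.0503.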
